A study of Arabidopsis thaliana with 15 samples.

Results

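The miRNA genes of Arabidopsis thaliana were described by the histone methylation peaks that lie on them. All nuclear genes of biotype miRNA in the NCBI RefSeq gene table were taken, which gave 326 of 37899 nuclear genes in the table. They were separated by their distance to the nearest protein-coding gene. Within 500 bp of a coding gene lay 164 of them, and 162 lay at least 500 bp away. Of the 164, 89 overlapped a coding gene and 75 were close to one without overlap. The class edge fell between MIR158a at 497 bp and MIR845b at 500 bp.

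The chromatin came from whole seedlings of accession Col-0, grown on plates in long days for 8 days (1 label gives 7 days), and was digested with micrococcal nuclease. For each of 3 genotypes, wild-type, the fpa single mutant (fpa-7, in the gene of the RNA-binding flowering regulator FPA) and the bdrs triple mutant, 1 library each was made for H3K4me2, H3K4me3, H3K36me3, total H3 and the digested chromatin itself (15 libraries). The data used here are 3 lists of peaks, 1 per methylation mark, whose peak names describe pooled mark libraries set against pooled H3 and do not say which genotypes were pooled. No difference between genotypes, no replicate error and no read depth can therefore be taken from them, and every value below is a description of pooled seedling chromatin with no test. Of the tissue markers, the leaf genes LHCB3, LHCB5, PSAF and RCA and the root genes SHR and SCR held H3K4me3 peaks, the root meristem genes PLT1 and PLT2 held none, and the seed genes CRU1, CRU2, EM1 and LEC1 held none.

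Plant miRNAs are cut by the nuclease DCL1 from hairpins in longer transcripts that RNA polymerase II makes, and they guide AGO1 to complementary messenger RNAs, which are then cleaved or not translated. Conserved families control the timing of development, organ shape, hormone response and nutrient uptake, largely through transcription factors. H3K4me3 is known from the starts of transcribed genes and H3K36me3 from transcribed gene bodies. In plants H3K4me2 is found both on transcribed and on weakly transcribed genes. The genes in the table are short, with a median length of 144.5 bp (59 to 689 bp) against 2078 bp for coding genes, so they hold the hairpin and little else of the transcript. The table gives no strand and no exons, so neither the start of the primary transcript nor the intron or exon of a host gene could be assigned.

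Among the 162 genes at least 500 bp from coding genes, marks were found on a minority. A gene is called covered by a mark where peaks overlie at least 50% of its length. H3K4me2 covered 35 of them (21.6%), H3K4me3 23 (14.2%) and H3K36me3 15 (9.26%). The same rule was met by 34.3%, 19% and 42.4% of the 27444 nuclear coding genes for H3K4me2, H3K4me3 and H3K36me3, which are much longer. A comparison that does not turn on gene length is the sequence of the same kind. Of all bases at least 500 bp from coding genes, 2.4% lay inside an H3K4me2 peak, 0.861% inside an H3K4me3 peak and 0.684% inside an H3K36me3 peak. Other non-coding RNA genes at that distance, 1978 in number, were covered in 15.4%, 11.3% and 7.84% of cases. Within them the classes differed widely, from snoRNA genes (41.5%, 78.8% and 67.8% of 118) to lncRNA genes (13%, 6.07% and 2.44% of 1351) and tRNA genes (0.588%, 0% and 10% of 170). Pseudogenes at that distance were covered in 3.87%, 0.653% and 0.603% of 3981 cases. The shares of miRNA genes were therefore above those of all bases at that distance for each mark and nearer to those of other non-coding RNA genes. These bases are taken over the whole genome and are not the surroundings of the miRNA genes.

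With the reach of a peak extended to 500 bp from the gene, H3K4me2 was found at 42 of the 162 genes (25.9%), H3K4me3 at 28 (17.3%) and H3K36me3 at 16 (9.88%). The lists differ in length, and with the 13491 strongest peaks of each list every mark was in reach of 16 genes. The background by this rule was 79.9%, 68.4% and 58.3% of coding genes and 5.1%, 2% and 1.16% of the bases at least 500 bp from coding genes. For other non-coding RNA genes at that distance the shares were 24.3%, 15.5% and 9.56%. Split by class, the shares were 21.6%, 8.96% and 3.48% for lncRNA genes, 50%, 88.1% and 75.4% for snoRNA genes and 4.12%, 1.18% and 11.8% for tRNA genes. In all, 50 of the 162 genes had at least 1 mark on them or within 500 bp and 112 genes had none. Pseudogenes had a peak in reach in 6.81%, 2.79% and 1.43% of cases.

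**Figure D1:**
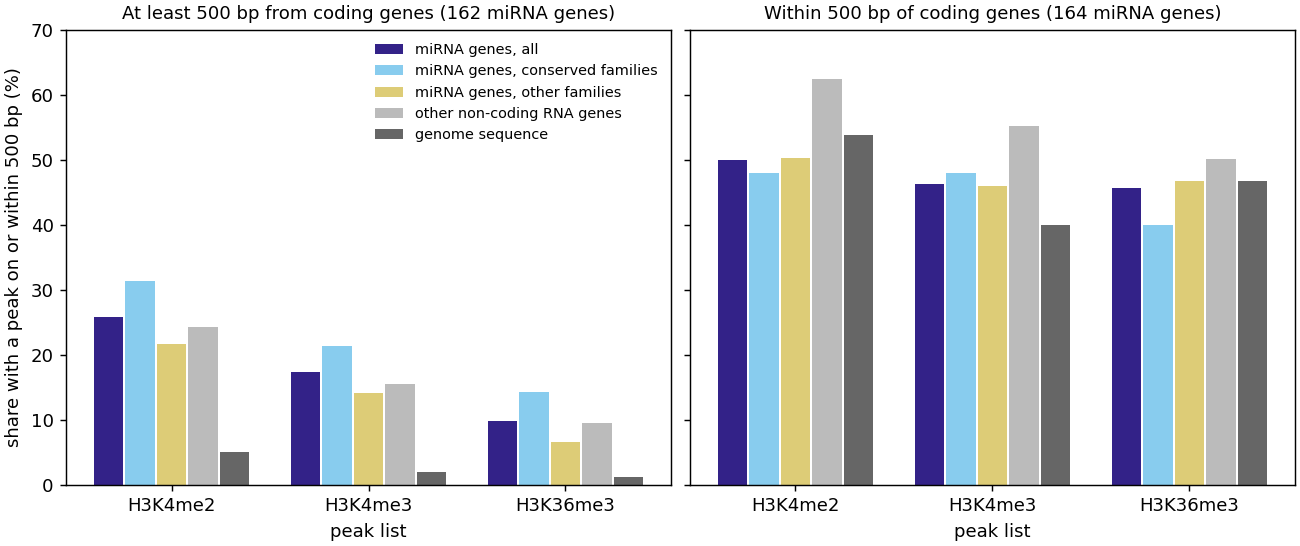
Share (%) of miRNA genes with a peak of each list on the gene or within 500 bp, for genes at least 500 bp from coding genes (left) and within 500 bp (right), beside other non-coding RNA genes and the genome sequence of the same class. On the left, all miRNA bars (9.88% to 25.9% over all families) stand above the sequence bars (1.16% to 5.1%), and on the right the miRNA bars (45.7% to 50% over all families) stand near those of the sequence (40% to 53.9%).

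Near coding genes the shares were close to those of all bases within 500 bp of coding genes. Of the 164 genes within 500 bp, a peak in reach was found at 82 (50%) for H3K4me2, 76 (46.3%) for H3K4me3 and 75 (45.7%) for H3K36me3. The bases within 500 bp of coding genes lay in reach of a peak in 53.9%, 40% and 46.8%, and other non-coding RNA genes there in 62.5%, 55.2% and 50.1%. The 3 marks covered 41, 37 and 42 of the 164 genes (25%, 22.6% and 25.6%), against 29.5%, 20.2% and 31.8% of those bases inside a peak. The peaks in reach of the 75 close genes mostly touched a coding gene as well, as 11 of 38 H3K4me2, 8 of 40 H3K4me3 and 4 of 30 H3K36me3 peaks touched none. Where a peak touched both, a mark of the miRNA gene and a mark of the coding gene cannot be told apart.

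Away from coding genes the peaks at miRNA genes seldom extended over a coding gene, which is partly set by the choice of this class by distance. Of the distinct peaks that reached the 162 genes, no coding gene was touched by 40 of 41 H3K4me2 peaks, 28 of 28 H3K4me3 peaks and 15 of 16 H3K36me3 peaks. The exceptions were the H3K4me2 peak at MIR864, which ran over AT1G19470, and the H3K36me3 peak at MIR172e, which ran over AT5G59500 and had its summit 2284 bp from the miRNA gene. The summit lay inside the gene or within 100 bp of it in 27 of the 42 pairs of a gene and an H3K4me2 peak. This was so in 22 of 28 pairs with H3K4me3 and 12 of 16 with H3K36me3. The H3K4me2 and H3K36me3 peaks were narrower than their lists, with median widths of 617 bp and 1002 bp against 981 bp and 1623 bp. The H3K4me3 peaks had a median width of 826 bp against 834 bp. For all peaks that touched no coding gene the median widths were 579 bp for H3K4me2, 623 bp for H3K4me3 and 934 bp for H3K36me3. Peaks that touched no coding gene were few in the whole lists, at 1342, 589 and 240 for H3K4me2, H3K4me3 and H3K36me3. A miRNA gene of either class lay under 41 of those H3K4me2 peaks (3.06%), 31 H3K4me3 peaks (5.26%) and 18 H3K36me3 peaks (7.5%). An lncRNA gene lay under 299, 147 and 47 of the same peaks. In the whole lists, a miRNA gene lay under 75 of 23189, 62 of 17686 and 58 of 13491 peaks.

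The median fold of the peaks at these 162 genes was below that of the whole list for each mark. The authors' fold over pooled H3, which ranks peaks only within a list, had a median of 2.91 for H3K4me2 (2.02 to 5.7), 6.8 for H3K4me3 (2.86 to 12.1) and 5.28 for H3K36me3 (3.43 to 8.37). The list medians were 3.37, 8.84 and 5.68. Above the list median stood 16 of 41, 6 of 28 and 5 of 16 peaks. The same held for all peaks that touched no coding gene, whose median folds were 2.98, 6.78 and 4.58.

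MIR156c stood apart from the other genes of this class in both trimethyl lists. miR156 represses SPL transcription factors and holds the plant in its juvenile phase, and its level is high in young seedlings. The H3K4me3 peak on MIR156c ran on chromosome 4 from 15413774 to 15416171 (TAIR10, 2398 bp) at a fold of 12.1, above 97.65% of the list. Its H3K36me3 peak, from 15413647 to 15415856, had a fold of 8.37, above 98.93% of the list. The H3K4me2 peak there, from 15414426 to 15416134, had a fold of 2.02 and was among the weakest, above 3.49% of its list. The nearest coding gene, GPX7, lay 2932 bp away, and none of the 3 peaks touched a coding gene. MIR156a, on chromosome 2, was covered by H3K4me3 (10675641 to 10677136, fold 7.76) and H3K36me3 (10675445 to 10677070, fold 5.25), and its nearest listed H3K4me2 peak was 3845 bp away.

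The marks fell into 4 main combinations on the 42 genes of this class that at least 1 mark covered. All 3 marks covered 7 genes, MIR156c, MIR162a, MIR162b, MIR166a, MIR167a, MIR830 and MIR5636. Both trimethyl marks without H3K4me2 covered 6, MIR156a, MIR159a, MIR161, MIR168a, MIR403 and MIR4228. H3K4me2 with H3K4me3 covered 10, MIR159b, MIR164b, MIR173, MIR393b, MIR396a, MIR396b, MIR414, MIR827, MIR864 and MIR5641. H3K4me2 alone covered 17, with MIR165a, MIR166e, MIR171b, MIR171c, MIR172a, MIR172b, MIR160c, MIR390a, MIR393a, MIR399c, MIR391, MIR447b, MIR836, MIR842, MIR846, MIR866 and MIR869. MIR779 had H3K4me2 and H3K36me3, with the H3K4me3 peak 58 bp from it, and MIR172e had H3K36me3 alone. H3K4me3 alone covered none of the 162. These sets depend on the lengths of the lists, since with the 13491 strongest peaks of each list H3K4me2 covered 13 of the 162 genes and H3K4me3 and H3K36me3 15 each.

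H3K36me3 was nested in H3K4me3 on these genes, as 13 of the 15 genes with H3K36me3 also had H3K4me3, the exceptions being MIR779 and MIR172e. Of the 23 genes with H3K4me3, 13 had H3K36me3 and 17 had H3K4me2. Of the 35 genes with H3K4me2, 17 had H3K4me3 and 8 had H3K36me3. Near coding genes 25 of the 42 genes with H3K36me3 had H3K4me3, and H3K36me3 alone covered 12 genes, among them MIR838, MIR824, MIR852 and MIR862. On coding genes, where the same rule demands cover of at least 50% of a long body, 28.7% of the genes with H3K36me3 had H3K4me3.

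**Figure D2:**
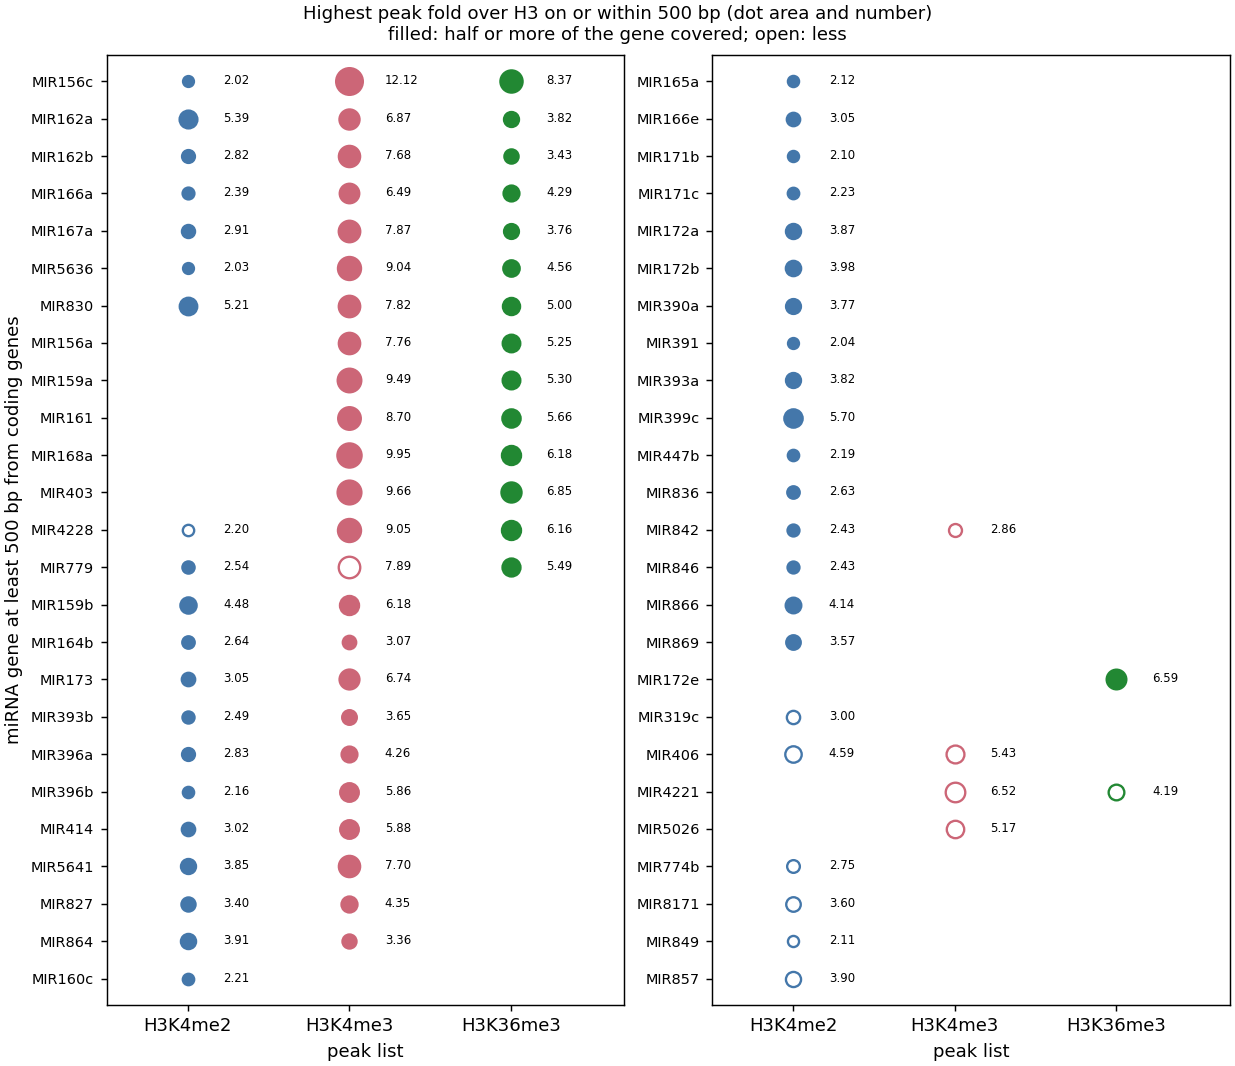
Each of the 50 miRNA genes at least 500 bp from coding genes with a peak on it or within 500 bp, with the highest fold over H3 in each of the 3 lists (dot area and printed number, comparable only within a list). Filled dots mark genes covered for at least 50% of their length, and MIR156c has the highest H3K4me3 and H3K36me3 folds of the class, 12.12 and 8.37.

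The genes were also grouped by the role of their targets, and each group is to be read against the 95 genes of conserved families, near to and away from coding genes together. H3K4me2 covered 28.4% of those, H3K4me3 23.2% and H3K36me3 16.8%, and 54.7% had no mark in reach (51.2% of all 326). The miRNA genes that act on the small RNA pathway itself all carried both trimethyl marks. miR162 targets DCL1, miR168 targets AGO1 and miR403 targets AGO2, so these genes sit in feedback loops of the pathway. H3K4me3 and H3K36me3 covered 5 of 5 genes and H3K4me2 covered 3. MIR168a had the second highest H3K4me3 fold of the genes away from coding genes, 9.95 on chromosome 4 from 10578473 to 10579600, with H3K36me3 at 6.18 from 10578492 to 10579467. MIR403 followed at 9.66 on chromosome 2 from 19414977 to 19415754, with H3K36me3 at 6.85. Neither had H3K4me2 in reach, and the nearest listed H3K4me2 peak was 2169 bp from MIR168a and 2629 bp from MIR403. MIR162a had folds of 5.39, 6.87 and 3.82 for H3K4me2, H3K4me3 and H3K36me3, and MIR162b 2.82, 7.68 and 3.43. Their H3K36me3 peaks stood above 10.1% and 4.8% of the list, while the H3K4me2 peak of MIR162a stood above 86.56%. MIR168b, the second copy of its family, lay within 500 bp of a coding gene. Peaks that touched no coding gene covered it with H3K4me2 at 3.76, H3K4me3 at 9.05 and H3K36me3 at 3.90.

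Families of developmental timing were split between copies. miR156 and miR157 target SPL genes, and miR172, which rises with age, targets AP2-like repressors of flowering. Of 19 genes H3K4me2 covered 7, H3K4me3 4 and H3K36me3 5, and 10 had no mark in reach, shares near those of conserved families as a whole. Among the MIR156 copies, MIR156a, MIR156b, MIR156c and MIR156d had both trimethyl marks, and MIR156e, MIR156f, MIR156g and MIR156h had none of the 3 marks in reach. MIR156b lay close to a coding gene, but its peaks, at folds of 3.63, 6.46 and 3.73, touched none. MIR156d lay inside AT5G10946, with folds of 2.37, 8.73 and 4.85. MIR156i and MIR156j lie in the table inside SPL4 and SPL9, and SPL genes are themselves targets of miR156. H3K4me2 covered these 2 copies and the trimethyl marks did not, although H3K4me3 peaks covered 43.2% of SPL9. All 4 MIR157 genes had no mark in reach. MIR172a and MIR172b had H3K4me2 alone, at folds of 3.87 and 3.98, with their nearest H3K4me3 peaks 3165 bp and 3376 bp away. MIR172c and MIR172d had no mark.

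Families of leaf and meristem patterning were likewise split between copies. This list holds miR159 (MYB factors), miR319 (TCP factors), miR164 (NAC factors of organ boundaries), miR165 and miR166 (class III HD-ZIP factors), miR396 (growth-regulating factors) and miR394 (an F-box protein). Of 22 genes, H3K4me2 covered 8, H3K4me3 7 and H3K36me3 3, and 11 had no mark in reach, again near the shares of conserved families. MIR159a had H3K4me3 at 9.49 and H3K36me3 at 5.30 with no H3K4me2 in reach. Its copy MIR159b had H3K4me2 at 4.48 and H3K4me3 at 6.18 with no H3K36me3 in reach, and MIR159c had none of the 3. Of the MIR166 copies, MIR166a and MIR166b had all 3 marks, MIR166e H3K4me2 alone, and MIR166d, MIR166f and MIR166g none in reach. MIR166c, close to a coding gene, was not covered and had H3K4me3 alone in reach. MIR165a had a narrow H3K4me2 peak of 387 bp at 2.12, and MIR165b had no mark. MIR396a and MIR396b both had H3K4me2 and H3K4me3, at H3K4me3 folds of 4.26 and 5.86. MIR164b had H3K4me3 at 3.07, above 1.88% of the list, and H3K4me2 at 2.64, while MIR164a and MIR164c had no mark. No copy of MIR319 or MIR394 was covered. A single mark was in reach of these 5 genes, H3K4me2 at 337 bp from MIR319c.

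Among hormone-related families, miR160 and miR167 target auxin response factors, miR393 the auxin receptors of the TIR1 group, and miR390 starts the siRNAs from TAS3 that act on further auxin response factors. H3K4me2 covered 5 of 11 genes, H3K4me3 2 and H3K36me3 1, in the order seen over all genes away from coding genes. MIR167a had all 3 marks, at folds of 2.91, 7.87 and 3.76. MIR393b had H3K4me2 at 2.49 and H3K4me3 at 3.65, whereas MIR393a had H3K4me2 alone at 3.82. MIR390a (3.77) and MIR160c (2.21) also had H3K4me2 alone. MIR160a, MIR160b, MIR167b, MIR167c, MIR167d and MIR390b had no mark in reach. Of the 4 genes whose miRNAs trigger trans-acting siRNAs, MIR173, which acts on TAS1 and TAS2, had H3K4me2 at 3.05 and H3K4me3 at 6.74, and MIR828, close to ACBP2, had all 3 marks in reach on that neighbour and none on itself.

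The families that target GRAS and NF-Y transcription factors were seldom covered. H3K4me2 covered 2 of 18 genes, MIR171b at 2.11 and MIR171c at 2.23, and neither trimethyl mark covered any. Of the 14 MIR169 genes, 12 had no mark in reach. They include MIR169i to MIR169n on chromosome 3, which lie in 3 pairs with 156 to 168 bp between partners. The other two copies had peaks of coding genes in reach, H3K4me2 at 209 bp from MIR169a and all 3 marks at 437 to 450 bp from MIR169h. MIR171a had H3K4me2 412 bp away on IQD20, and MIR170 had all 3 marks 294 to 335 bp away on STR16.

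Among nutrient-responsive families, miR395 targets genes of sulfate assimilation, miR399 and miR827 genes of phosphate balance, and miR397, miR398, miR408 and miR857 genes of copper proteins. Of 20 genes, H3K4me2 covered 2, H3K4me3 4 and H3K36me3 2, and 13 had no mark in reach, among them all 6 MIR395 genes and 5 of the 6 MIR399 genes. Away from coding genes 10 of 13 had none, against 69.1% of all miRNA genes there and 61.4% of those from conserved families. MIR399c had H3K4me2 alone, at 5.70 on chromosome 5 from 24962249 to 24963130, the highest H3K4me2 fold among genes away from coding genes. The summit of that peak lay 402 bp from MIR399c, and the peak touched no coding gene. ZIP12, the nearest coding gene, was 621 bp from MIR399c. MIR827 had H3K4me2 at 3.40 and H3K4me3 at 4.35. MIR398b and MIR408 had both trimethyl marks but lie inside coding genes, AT5G14550 and AT2G47020, whose own cover by H3K36me3 was 100% and 91.2%. The H3K4me3 peak on MIR408 had a fold of 2.73, above 0.07% of the list. MIR398c, which lies close to the nitrate transporter gene NRT2.7, was covered by an H3K4me3 peak of 2432 bp that touched that gene.

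**Figure D3:**
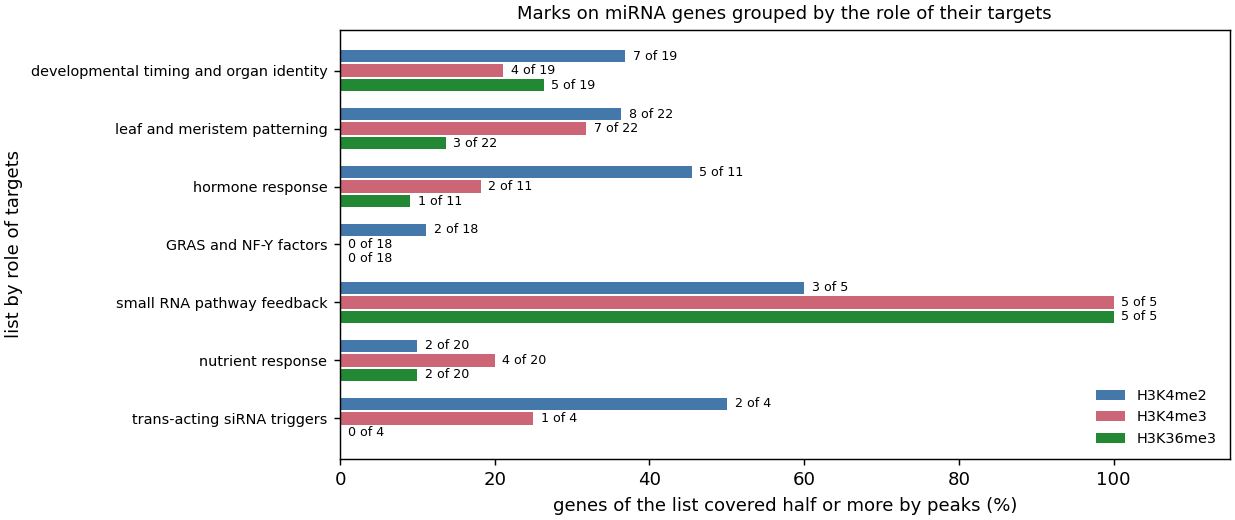
Share (%) of the miRNA genes of each list that peaks of H3K4me2, H3K4me3 and H3K36me3 covered for at least 50% of their length, with the numbers beside the bars. The small RNA pathway list has both trimethyl marks on 5 of 5 genes, and the GRAS and NF-Y list has them on 0 of 18.

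Copies of a family were thus not always covered alike. Over all 95 genes of conserved families, 35 (36.8%) were covered by at least 1 mark. Whether copies differed more or less than unrelated genes at that share was not tested. Of the 22 conserved families with at least 2 genes, 12 had some but not all copies covered by a mark, 4 had all copies covered (MIR162, MIR168, MIR393 and MIR396) and 6 had none (MIR157, MIR169, MIR319, MIR394, MIR395 and MIR397). Where copies share sequence, reads from them can be shared or discarded by an aligner. How far the copies share sequence was not examined, and the sources used here do not say how such reads were treated.

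Genes of conserved families were covered more often than genes of other families at a distance from coding genes. Of the 70 conserved genes of this class, 26 (37.1%) were covered by at least 1 mark, against 16 of 92 others (17.4%). The shares with a peak in reach were 38.6% and 25%. Near coding genes the order was the other way, with 9 of 25 conserved genes (36%) and 56 of 139 others (40.3%) covered. The shares with a peak in reach there were 64% and 66.9%. Of the 162 genes, 19 had fewer than 10 coding genes within 50 kb, a limit chosen after the values were seen. The 17 of these from other families had no mark in reach. They include the 5 MIR854 genes, of which MIR854a was 211081 bp from a coding gene. The 2 from conserved families, MIR396a and MIR396b, had H3K4me2 and H3K4me3. In the 143 remaining genes, the shares with a peak in reach were 36.8% for conserved and 30.7% for other families, and the shares covered 35.3% and 21.3%. These differences were not tested.

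**Figure D4:**
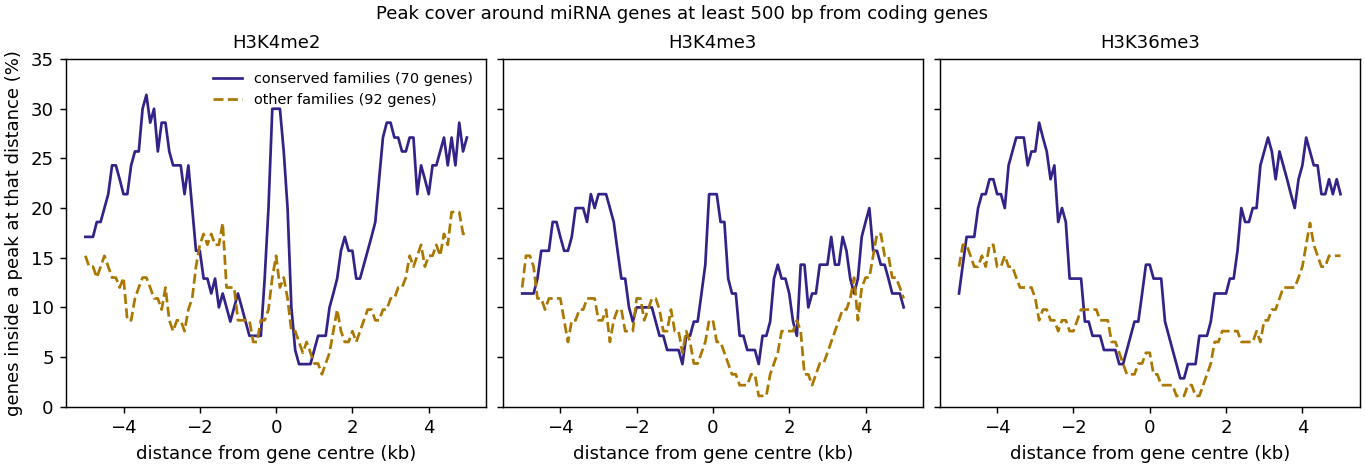
Share (%) of miRNA genes at least 500 bp from coding genes that lie inside a peak at each distance (kb) from the gene centre, for 70 genes of conserved families (solid) and 92 of other families (dashed), without regard to strand. At the centre the shares are 30%, 21.4% and 14.3% for conserved and 15.2%, 8.7% and 5.43% for other families. For conserved families the shares at 1000 bp are 11.4%, 5.71% and 5.71% on the left and 5.71%, 5.71% and 4.29% on the right. At 3000 bp they are 28.6%, 21.4% and 25.7% on the left and 28.6%, 14.3% and 25.7% on the right. For other families the shares at 1000 bp are 8.7%, 7.61% and 6.52% on the left and 4.35%, 3.26% and 2.17% on the right. At 1400 bp on the left those of other families are 18.5%, 9.78% and 9.78%, above their shares at the centre.

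Among the miRNA genes, marks were rare at the longest distances from coding genes. Between 500 and 1000 bp, 26.8%, 9.76% and 4.88% of 41 genes had H3K4me2, H3K4me3 and H3K36me3 in reach. From 1000 to 2000 bp the shares were 30.8%, 25% and 17.3% of 52 genes, and from 2000 to 5000 bp 33.3%, 23.8% and 11.9% of 42. At 5000 bp or more, 1 of 27 genes, MIR396b, had H3K4me2 and H3K4me3 and none had H3K36me3. Conserved families gave 2 of these 27 genes, against 18 of 41, 24 of 52 and 26 of 42 at the shorter distances. Distance and family were not separated here. By chromosome, the share of genes of this class with any mark in reach was 38.5%, 39.3%, 17.9%, 23.1% and 31.7% for chromosomes 1 to 5. The shares of other genes or of all bases in these distance ranges and chromosomes were not computed. Whether miRNA genes differ from them was therefore not tested.

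Among the other families, a few genes had marks as strong as those of conserved ones. MIR161, whose miRNAs target pentatricopeptide repeat genes, had H3K4me3 at 8.70 on chromosome 1 from 17825599 to 17826453 and H3K36me3 at 5.66. MIR4228 had H3K4me3 at 9.05 and H3K36me3 at 6.16, with an H3K4me2 peak 87 bp away, and MIR5636 had H3K4me3 at 9.04, H3K36me3 at 4.56 and a weak H3K4me2 peak at 2.03. MIR830 had folds of 5.21, 7.82 and 4.996 for the 3 marks. MIR406 was not covered, but H3K4me2 at 4.59 and H3K4me3 at 5.43 lay 376 and 377 bp from it. MIR866 had H3K4me2 at 4.14. MIR842 and MIR846, which target jacalin-related lectin genes, shared 1 H3K4me2 peak of 1821 bp at 2.43. Close to a coding gene, MIR163, whose miRNA targets methyltransferase genes, was covered by H3K4me2 at 2.94 and H3K4me3 at 4.93 in peaks that touched no coding gene.

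Of the 71 miRNA genes that lie wholly inside a coding gene, the host had some H3K4me2 in 59, some H3K4me3 in 54 and some H3K36me3 in 46. By the wider rule of a peak on or within 500 bp, the shares of all coding genes were 79.9%, 68.4% and 58.3%. Of the 71 miRNA genes 22, 18 and 29 were covered, in the order of coding genes themselves (34.3%, 19% and 42.4%). MIR838, inside DCL1, was covered by the H3K36me3 peak of that gene (5926 bp, fold 6.39), while H3K4me2 and H3K4me3 peaks, which covered 25.4% and 14.7% of DCL1, did not reach it. MIR862 inside PKL, a chromatin remodeller, likewise had H3K36me3 alone, at 5.68. MIR400, which targets pentatricopeptide repeat genes, had H3K4me3 at 6.49 and H3K36me3 at 4.30 within AT1G32583. MIR472, which targets disease resistance genes, had all 3 marks inside AT1G12290, at 3.04, 9.15 and 5.92.

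The highest folds near coding genes belonged, with 1 exception, to peaks on the coding genes. For H3K4me2 these were 8.91 at MIR5637 inside AT2G28620, 8.38 at MIR8169 on CHR40, 8.02 at MIR5645f on EMB2656 and 7.43 at MIR861. For H3K4me3 they were 12.3 at MIR5022 on HAP13, 11.3 at MIR158b on AT1G55590, 11.3 at MIR5658 inside AT4G39840 and 11.1 at MIR5634. For H3K36me3 they were 8.24 at MIR5022, 8.08 at MIR848 inside AT5G13890, 8.04 at MIR158b and 7.89 at MIR852 inside AT4G14500. The exception was the H3K4me2 peak at MIR861, which touched no coding gene. MIR5022, MIR8169 and MIR5645f were themselves covered by none of the 3 marks.

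A gene without a listed peak may still hold an unlisted one. The peak numbers run along the genome with gaps, and the lists keep 62.8%, 76.3% and 62.8% of the numbers for H3K4me2, H3K4me3 and H3K36me3. The numbers are read here as a count of all called peaks, which the sources do not state. Of the 112 miRNA genes away from coding genes with no mark in reach, 23 lay between listed peaks with consecutive numbers in all 3 lists. On this reading no called peak had been left out around them. The 23 include MIR164a, MIR164c, MIR399d, MIR399e and MIR399f and 4 of the 5 MIR854 genes. For the other 89, at least 1 called peak would have been left out between the flanking listed peaks. The lists do not give its place.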

How the data were processed

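The 3 deposited peak lists have the narrowPeak layout. The submitters' processing notes name the build TAIR10 and the programs MACS2, R 3.3.2, SAMtools 1.3, Picard 2.2.4, Bowtie2 2.2.6 and Trimmomatic 0.33, without roles or settings. In the deposited lists, the fold is a ratio of the pooled mark over pooled H3, the −log10 p and −log10 q values are the caller's, and the deposited score equals the whole-number part of 10 times −log10 p. The selection of the kept peaks is not stated, and no read depth is given, so no counting interval applies. Positions are counted from 1.

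Genes came from the RefSeq table of TAIR10.1, from which no coordinate is printed. The share of peak sequence inside coding genes was highest with no offset (93.5%, 96.2% and 98.3% for H3K4me2, H3K4me3 and H3K36me3) among 7 offsets from −1000 to 1000 bp. Distances are between nearest ends. Where several peaks were in reach, genes were ranked and plotted by the highest fold; for a gene said to be covered the fold is that of the covering peak. Families were read from symbols; the lists of conserved families (27) and of roles rest on recall. The members and lists were chosen with earlier results of these data known. Genes named are those with all 3 marks, the first 6 folds per mark away from and the first 4 near coding genes, and the first 4 members of each role list in order of name; others were named after their values were seen. Python 3.11.15 with numpy 2.4.6, pandas 2.3.3 and matplotlib 3.10.9 was used, and the interval functions were tested on simulated data with known answers. No sequence is printed.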

Additional observations from a re-analysis of the deposited data

How the results depend on the processing

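The 15 counts of miRNA genes were recomputed under other settings, and 68 of 99 recomputed counts stayed within 1.5 times of the reported one. Marks are given in the order H3K4me2, H3K4me3, H3K36me3. With the strongest 50% of each list by −log10 p, a peak was in reach of 16, 7 and 6 genes away from coding genes, of 38, 31 and 28 near them, and of 8, 5 and 5 conserved genes away from them, while 13, 7 and 6 genes away and 22, 11 and 12 near were covered. With all lists at the 13491 strongest peaks, the H3K4me2 and H3K4me3 peaks reached 16 and 16 genes away from coding genes and 8 and 9 conserved ones, and covered 13 and 15; near coding genes 25 and 22 were covered, and H3K4me2 reached 48. A reach of 1000 bp gave 26 genes away from coding genes with H3K36me3. A reach of 100 bp gave 53, 45 and 45 near coding genes, and a summit within 500 bp gave 51, 45 and 31. The fewer peaks kept, or the other reach, are built into these settings. No paired analysis was possible because the lists pool libraries and no result comes from a test. No read depth is given, so it is not known which unmarked genes lacked reads.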
